A study of Mus musculus with 6 samples.

Results

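Cells carry proteins that bind foreign or misplaced nucleic acid in the cytosol and switch on interferon genes. Of the 11835 mouse genes with a deposited transcript value, 9 were chosen by name for that system, with earlier results of these data known. They are the RIG-I-like receptors Ddx58 (RIG-I), Ifih1 (MDA5) and Dhx58 (LGP2), their mitochondrial adaptor Mavs, the Z-form nucleic acid sensor Zbp1, the RNA-editing enzyme Adar, the kinases Tbk1 and Ikbke, and Tmem173 (STING), the adaptor of the cytosolic DNA pathway. All 9 were listed, through 17 of the 24023 deposited transcripts. The samples were C2C12 cells, a mouse myoblast line that fuses into myotubes, differentiated in medium with 2% horse serum and labelled as mouse myotube. A group of 3 libraries came from cells given a negative control siRNA (siNC) and a group of 3 from cells given siRNA against Cnn3, the actin-binding protein calponin 3 (siCNN3). The question put to these libraries was how the transcriptome differs when Cnn3 is reduced. No treatment with virus, interferon or a purified RNA ligand is named in the labels.

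RIG-I and MDA5 bind double-stranded RNA in the cytosol, RIG-I preferring ends with a triphosphate and MDA5 preferring long duplexes, while LGP2 binds RNA but lacks the signalling domains of the others. Bound receptors make MAVS polymerise on mitochondria, and MAVS recruits TBK1 and IKK-epsilon, which phosphorylate the factors that switch on interferon genes. The genes of the 3 receptors, of ZBP1 and of the long form of ADAR are known to be induced by interferon in most cell types, and muscle cells can make and answer type I interferon.

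Both groups received a synthetic RNA duplex, so the sense strands of the duplexes that the study lists are shown here. The study's list holds the NC siRNA and 3 duplexes against Cnn3, beside a Gapdh duplex that is not shown, and which of the 3 was used for the sequenced cells is not given in the sources used here. Capitals mark the 19 paired bases and the lower-case letters mark the overhang.
NC siRNA: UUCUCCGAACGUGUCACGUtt
CNN3 siRNA1: GCCUAGGCAUUGGCACCAAtt
CNN3 siRNA2: CCAUUGACAUUGGCGUUAAtt
CNN3 siRNA3: GGGCACCAAUGGGUCGGAAtt
The sense strands had the same length of 21 nucleotides, and their paired bases were 52.6% G or C in the control and between 42.1% and 63.2% in the CNN3 siRNAs. Their antisense strands are listed at 21 nucleotides, apart from that of CNN3 siRNA2 at 20.

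Values were FPKM, a fragment count scaled by transcript length and library size, and those of a library summed to between 322621 and 355591. The depth is unknown. A total of 2131 transcripts were listed at 0 in siNC replicate 1, compared with 978 to 1333 in each of the other libraries, and 330 matched transcripts stood at 0 in 1 library while reaching 10 FPKM in another. Of these, 235 did so between libraries of the same group, so a 0 can be a failed estimate. Cnn3 was listed at 62.8, 61.4 and 62.8 FPKM in the siNC libraries against 19.0, 39.2 and 25.6 FPKM in those of siCNN3. Its siCNN3 mean was 44.8% of the siNC mean, and the difference did not pass the threshold (log2 fold change -1.19, adjusted p = 0.0669, limma). Of the muscle markers, 8 of 10 were listed, and all 7 tested ones were lower in every siCNN3 library than in every siNC library, an order that 9.35% of all tested genes had. Of the 7, Acta1, Myh3 and Tnnt3 were called lower (adjusted p below 0.05), where 0.336% of all tested genes were. Myh3 and Mymk had a siCNN3 mean below the filter of 0.5 FPKM and entered the test only through their siNC level, so neither supports these counts. The summed level of the listed muscle markers was 152 to 172 FPKM in siNC and 95.2 to 116 FPKM in siCNN3. Of 11 immune cell markers, 3 (Cd68, Lyz2 and Cd14) were among the transcripts analysed here, summing to 20.1 to 27.1 FPKM in siNC and 16.3 to 19.2 FPKM in siCNN3. The defining leukocyte markers Ptprc, Csf1r, Adgre1 and Cd3e were not among them. Red blood cell markers summed to 224 to 653 FPKM in siNC and 49.9 to 72.7 FPKM in siCNN3 (2 of 4 tested called lower, against the same 0.336%), and 1 of 5 endothelial markers (Tek) was listed, at 1.37 FPKM or less in every library. The lower muscle and globin levels moved with the same groups as the results that follow, and their part in them was not tested.

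In siCNN3 the receptors and Zbp1 rose, Adar was at a higher mean without passing the test, and the adaptor and kinase genes gave no call. Genes whose mean over all libraries reached 0.5 FPKM, 11593 in number, went into a limma fit of log2(FPKM + 1), and those with a Benjamini-Hochberg adjusted p under 0.05 are here termed called. All 9 genes of the pathway passed that filter, each with a mean above 0.5 FPKM in both groups. Of the 9, Ddx58, Ifih1, Dhx58 and Zbp1 were called higher and 0 were called lower, where 1.73% of all tested genes were called higher (200 genes) and 0.336% lower (39 genes). At an unadjusted p below 0.05, 5 of the 9 were higher and 1 (Mavs) lower, where 9.94% of all tested genes were higher (1152 genes) and 6.14% lower (712 genes). After quantile normalization the counts over all genes were 199 higher and 93 lower, and 947 higher and 1252 lower at an unadjusted p below 0.05. In 5 genes of the pathway every siCNN3 library exceeded every siNC library, where 13.8% of all tested genes had that order, and in Mavs every siCNN3 library was below, an order that 9.35% of all tested genes had. Groups of 3 against 3 give an exact permutation p of 0.1 at the least, which all 6 of these genes reached (two-sided). The labels do not say whether replicates came from separate cultures, so p-values measure the spread between these libraries, which may be technical. Fold changes are differences of log2(FPKM + 1), which makes the change of low genes look smaller than it was. In bulk RNA, more cells expressing a gene and more RNA of it per cell cannot be told apart.

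**Figure D1:**
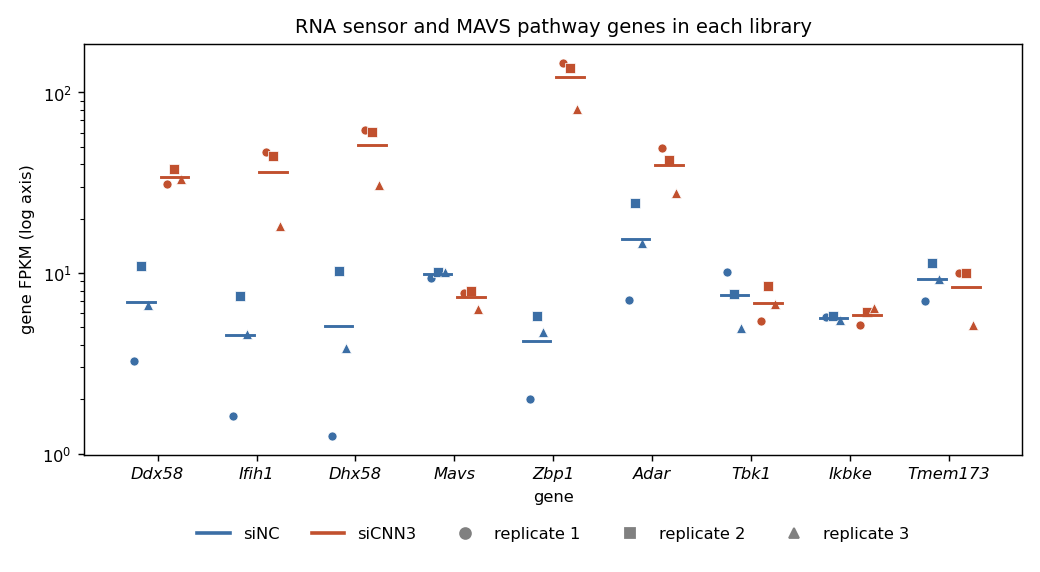
FPKM of the 9 genes (log axis) in each library, with siNC in blue, siCNN3 in red, a marker shape per replicate number and a line at each group mean. Zbp1 shows the widest gap, from at most 5.81 FPKM in siNC to at least 80.9 FPKM in siCNN3, while Tbk1, Ikbke and Tmem173 overlap between groups.

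Ddx58 encodes RIG-I and lies on chromosome 4 (coordinates here are of GRCm38), from 40203773 to 40239828 on the minus strand. It was listed at 3.27, 10.9 and 6.62 FPKM in replicates 1, 2 and 3 of siNC, against 31.2, 37.7 and 33.1 FPKM in the same order of siCNN3. The groups did not overlap, and the lowest siCNN3 library was 2.86 times the highest siNC library. The mean was 6.93 ± 3.83 FPKM for siNC and 34.0 ± 3.34 FPKM for siCNN3 (SD, n = 3 each), a log2 fold change of 2.26 (SE 0.349, adjusted p = 0.0312, limma). Unlike Ifih1, Dhx58 and Zbp1, its spread in siCNN3 was narrow, with 1.21 times between the highest and the lowest library. Most of its FPKM came from its full-length coding transcript of 926 codons, which held at least 81.7% in every library. The call was lost without siCNN3 replicate 1 (adjusted p = 0.110), siCNN3 replicate 2 (0.133) or siNC replicate 3 (0.133), with a log2 fold change of at least 1.87 whichever library was left out.

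Ifih1 encodes MDA5 and lies on chromosome 2 from 62595798 to 62646255 on the minus strand. Its values were 1.63, 7.46 and 4.58 FPKM in the siNC libraries against 46.7, 44.4 and 18.3 FPKM in those of siCNN3. The siCNN3 libraries all lay above the siNC libraries, and replicate 3 was well below the other siCNN3 libraries. The mean rose from 4.55 ± 2.92 FPKM to 36.5 ± 15.8 FPKM (SD, n = 3 each), a log2 fold change of 2.80 (SE 0.509, adjusted p = 0.0494, limma), just inside the threshold. The call was lost without siCNN3 replicate 1 (adjusted p = 0.171), siCNN3 replicate 2 (0.185), siNC replicate 1 (0.0998) or siNC replicate 3 (0.172). It was kept without siNC replicate 2 (0.0467) and also without siCNN3 replicate 3, where the log2 fold change was 3.22 (adjusted p = 0.0231). With a pseudocount of 0.1 in place of 1 the adjusted p was 0.0589, with no filter on low genes 0.0514 and without a variance trend 0.0565. Its listed transcripts, of 1025 and 976 codons, start at different sites and share their start codon, and the shorter held 24.8% to 42.2% of the gene's FPKM in siCNN3.

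Dhx58 encodes LGP2 and lies on chromosome 11 from 100694884 to 100704271 on the minus strand. It was listed at 1.25, 10.2 and 3.84 FPKM in the siNC libraries against 62.3, 60.3 and 30.9 FPKM in those of siCNN3. Within siNC the highest library was 8.16 times the lowest, the widest such ratio of the 9 genes, yet the lowest siCNN3 library was still 3.03 times the highest siNC library. The mean rose from 5.10 ± 4.61 FPKM to 51.1 ± 17.6 FPKM (SD, n = 3 each), a log2 fold change of 3.33 (SE 0.576, adjusted p = 0.0430, limma). The call was lost without siCNN3 replicate 1 (adjusted p = 0.153), siCNN3 replicate 2 (0.159), siNC replicate 1 (0.0797) or siNC replicate 3 (0.169). With a pseudocount of 0.1 the adjusted p was 0.0569. A single transcript of it, of 678 codons, was listed. The annotated antisense gene Dhx58os overlaps it, and since strand is not stated, reads of the pair cannot be told apart.

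The start regions of Ddx58 and Ifih1 are shown because both genes were called and both hold a match to the interferon-stimulated response element, the site bound by the factors that interferon activates. RefSeq windows from 250 bases before to 50 bases after each start in GRCm38.p6 were found for 6 of the 9 genes (8 windows), with none used for Dhx58, Zbp1 and Tmem173. They were searched on both strands for GAAA, any 2 bases, GAAA. The match is in capitals, and each sequence reads 5′ to 3′ on the gene's strand.
Ddx58, chr4:40239804-40239833, minus strand: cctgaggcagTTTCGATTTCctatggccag
Ifih1, chr2:62646206-62646235, minus strand: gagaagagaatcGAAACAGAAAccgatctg
The match covered bases 3 to 12 after the start site in Ddx58, where it reads on the opposite strand, and bases 33 to 42 in Ifih1. Such a match was present in 3.44% of all 32851 windows and in 3.14% of the 11573 windows of tested genes. The windows of Mavs, Tbk1, Ikbke and Adar held none, and looser spellings of the element were not searched. A match describes the letters of the window and is not a measured binding site.

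Taken per library, the sum of the 3 receptors was 6.14, 28.6 and 15.03 FPKM in siNC and 140.2, 142.3 and 82.2 FPKM in siCNN3. Their adaptor did not follow. Mavs, on chromosome 2 from 131234063 to 131248025 on the plus strand, was listed at 9.39, 10.1 and 10.1 FPKM in the siNC libraries against 7.80, 7.95 and 6.30 FPKM in those of siCNN3. The siCNN3 libraries were all below the siNC libraries, with means of 7.35 ± 0.908 and 9.89 ± 0.427 FPKM (SD, n = 3 each), but the difference was small and not called (log2 fold change -0.39, 95% interval -0.72 to -0.05, adjusted p = 0.243, limma). The ratio of the receptor sum to Mavs was 0.654, 2.82 and 1.48 in siNC and 18.0, 17.9 and 13.0 in siCNN3, a ratio of means of 9.87 (exact permutation p = 0.1). Both listed Mavs transcripts code the same 503 codons from the same start, and the one of 3057 bases held 38.6% to 81.0% of the gene's FPKM with no order between groups (exact permutation p = 1). The receptor sum was thus below Mavs in siNC replicate 1, and at least 13.0 times Mavs in each siCNN3 library.

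**Figure D2:**
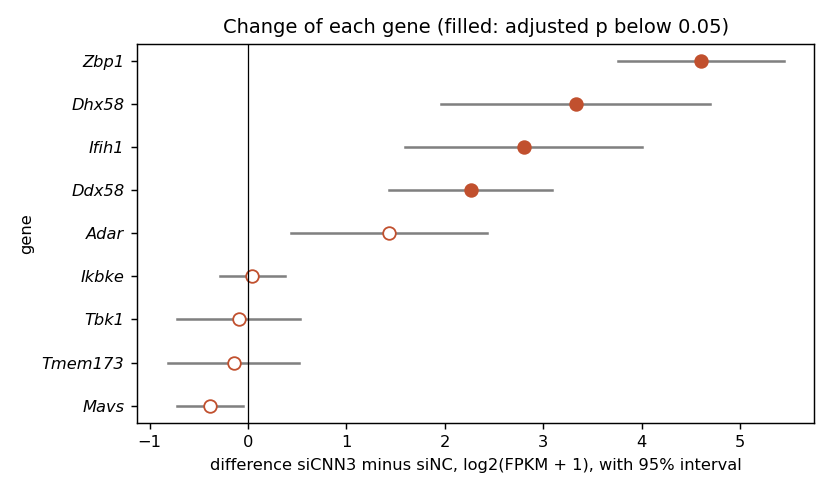
Difference siCNN3 minus siNC in log2(FPKM + 1) for the 9 genes, with 95% intervals from limma; filled points have an adjusted p below 0.05. Zbp1, Dhx58, Ifih1 and Ddx58 are filled, and the intervals of Ikbke, Tbk1 and Tmem173 include 0.

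Zbp1 encodes a sensor of nucleic acid in the left-handed Z form, known for triggering necroptosis and inflammation. It lies on chromosome 2 from 173206612 to 173218923 on the minus strand. The gene was listed at 2.02, 5.81 and 4.71 FPKM in the siNC libraries against 146.3, 137 and 80.9 FPKM in those of siCNN3. It was the lowest of the 9 genes by mean in siNC and the highest in siCNN3. The mean rose from 4.18 ± 1.95 FPKM to 121 ± 35.4 FPKM (SD, n = 3 each), 29.1 times the siNC mean. Its log2 fold change of 4.60 (SE 0.355, adjusted p = 0.00473, limma) was the 18th in size of the 11593 tested genes. The lowest siCNN3 library was 13.9 times the highest siNC library. Zbp1 was called whichever library was left out, with an adjusted p between 0.00229 and 0.0421, and it was the only one of the 9 genes for which that held.

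Both listed Zbp1 transcripts rose, and at the level of single transcripts they were the only ones of the 17 to be called, where 0.462% of 21658 tested transcripts were called higher. The transcript of 8 exons and 411 codons is the full-length form, and it was listed at 0, 1.26 and 1.59 FPKM in the siNC libraries against 54.2, 46.1 and 22.5 FPKM in those of siCNN3 (adjusted p = 0.0339, limma on transcripts). The transcript of 4 exons and 187 codons starts at the same codon and ends early, and it was listed at 2.02, 4.55 and 3.12 FPKM in the siNC libraries against 92.1, 91.0 and 58.5 FPKM in those of siCNN3 (adjusted p = 0.0131). The short transcript held 62.9% to 72.2% of the gene's FPKM in siCNN3, and its share did not separate the groups (exact permutation p = 0.3). The transcripts of the receptors had larger adjusted p-values than their genes. The adjusted p was 0.0856 for the Ddx58 transcript of 926 codons, 0.0732 for the Ifih1 transcript of 1025 codons and 0.108 for that of Dhx58.

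Adar encodes the enzyme that changes adenosine to inosine in double-stranded RNA, which keeps a cell's own duplexes from being read as foreign. It lies on chromosome 3 from 89715022 to 89753446 on the plus strand, and its end overlaps Chrnb2 on the other strand. It was listed at 7.07, 24.4 and 14.6 FPKM in the siNC libraries against 49.1, 42.4 and 27.8 FPKM in those of siCNN3. The groups did not overlap, but the highest siNC library came close to the lowest siCNN3 library, which was 1.14 times as high. The mean was 15.4 ± 8.68 FPKM for siNC and 39.8 ± 10.9 FPKM for siCNN3 (SD, n = 3 each), and the difference was not called (log2 fold change 1.43, 95% interval 0.43 to 2.43, adjusted p = 0.157, limma). With any 1 library left out the adjusted p stayed between 0.0900 and 0.434.

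The long form of ADAR starts at an interferon-inducible promoter and has a Z-nucleic acid binding domain that the short form lacks. In these data neither form was called, and both were at a higher level in each siCNN3 library than in any siNC library. The transcripts of 1152 and 1178 codons start at base 89730748 and code the long form. Together they were listed at 4.26, 15.1 and 7.89 FPKM in the siNC libraries against 30.03, 28.4 and 16.7 FPKM in those of siCNN3, without overlap (exact permutation p = 0.1). A further transcript starts upstream at base 89715022 and codes the short form of 930 codons, and it was listed at 2.81, 8.56 and 6.15 FPKM in the siNC libraries against 17.9, 13.1 and 10.1 FPKM in those of siCNN3, also without overlap. The means were 2.76 times the siNC mean for the long form and 2.35 times for the short form. The long form held 60.2%, 62.0% and 53.9% of Adar FPKM in siNC and 61.2%, 67.0% and 60.2% in siCNN3, which overlapped (exact permutation p = 0.5). Neither the 1178-codon transcript (adjusted p = 0.314) nor the 930-codon one (adjusted p = 0.346) was called by limma on transcripts.

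The start of the long form is shown because the windows of the short form's starts held no match to either motif searched. It holds a gamma-activated sequence, searched on both strands as TTC, any 3 bases, GAA, at bases 23 to 31 after the RefSeq start.
Adar, chr3:89730730-89730759, plus strand: gggaagccttTTCAAGGAAacgaaagtgaa
This motif was present in 8.30% of all windows and in 6.83% of the windows of tested genes, and none of the other windows of the pathway held it. The printed stretch also holds a pair of GAAA with a shorter gap than the response element search allowed, which was not counted as a match.

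**Figure D3:**
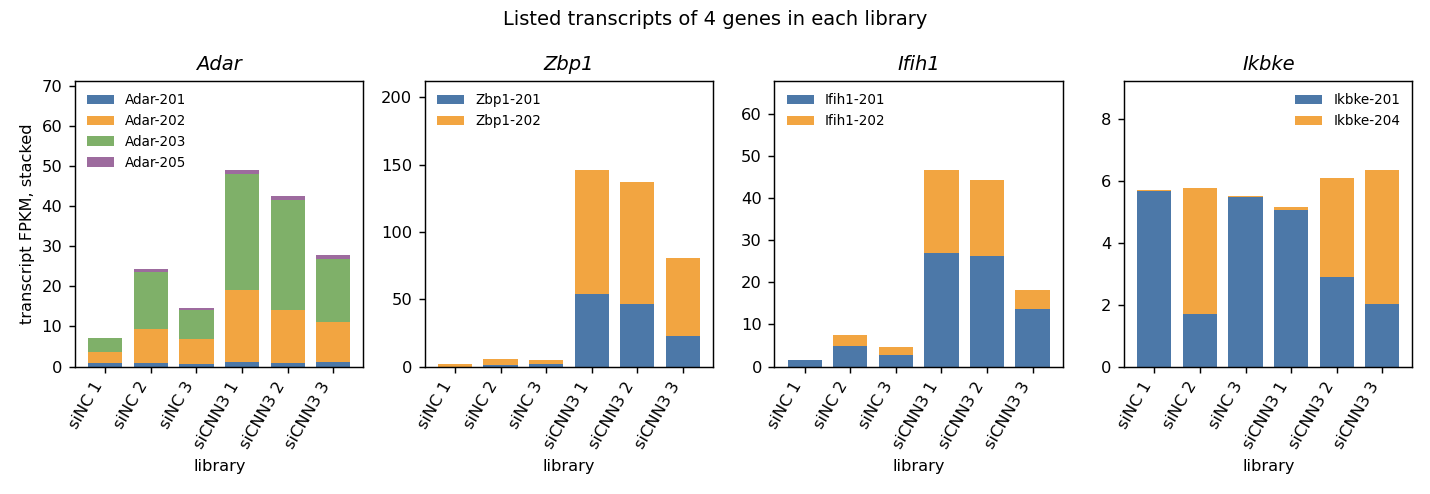
FPKM of the listed transcripts of Adar, Zbp1, Ifih1 and Ikbke, stacked for each library, with the transcript names of the annotation in the legends. The makeup of Adar and Zbp1 is much alike across siCNN3 libraries while the height differs, and in Ikbke the height is alike while the makeup changes between libraries of both groups.

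The sensor and the editing enzyme were also set against each other within a library. Zbp1 was 0.285, 0.238 and 0.322 times Adar in siNC and 2.98, 3.23 and 2.91 times Adar in siCNN3. These ratios varied little within a group, although the single genes varied 2.88 times (Zbp1) and 3.45 times (Adar) within siNC, and the ratio of group means was 10.8 (exact permutation p = 0.1).

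The kinases and STING did not differ beyond their spread. Tbk1, which phosphorylates IRF3, lies on chromosome 10 from 121546455 to 121586787 on the minus strand, and it was listed at 10.1, 7.61 and 4.97 FPKM in the siNC libraries against 5.40, 8.48 and 6.71 FPKM in those of siCNN3. Its groups overlapped, and the log2 fold change was -0.10 with a 95% interval of -0.72 to 0.53 (adjusted p = 0.891, limma). Ikbke, the inducible relative of Tbk1, lies on chromosome 1 from 131254343 to 131279606 on the minus strand. It was listed at 5.70, 5.78 and 5.50 FPKM in the siNC libraries against 5.17, 6.12 and 6.37 FPKM in those of siCNN3, the narrowest range of the 9 genes. Its log2 fold change was 0.04 with a 95% interval of -0.28 to 0.37 (adjusted p = 0.908, limma). Although the gene sum stayed in place, the transcript of 693 codons held 0.165%, 70.5% and 0.298% of it in siNC and 1.93%, 52.9% and 68.5% in siCNN3, so the split between its transcripts differed between libraries of a group and did not follow the groups (exact permutation p = 0.8). A pair of annotated antisense genes overlaps Ikbke.

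Tmem173 encodes STING, which answers the DNA sensor cGAS and uses TBK1 as MAVS does, and it lies on chromosome 18 from 35733679 to 35740554 on the minus strand. Its levels were 6.97, 11.4 and 9.29 FPKM in the siNC libraries against 10.05, 10.04 and 5.17 FPKM in those of siCNN3. The groups overlapped, and the log2 fold change was -0.15 with a 95% interval of -0.81 to 0.52 (adjusted p = 0.838, limma). A rise of up to 0.53 for Tbk1 and 0.52 for Tmem173 on the log2 scale lies within these intervals.

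Since FPKM are per transcript length, levels can be set in order between genes. By mean FPKM in siNC the order was Adar, Mavs, Tmem173, Tbk1, Ddx58, Ikbke, Dhx58, Ifih1 and Zbp1, and each neighbouring pair overlapped between libraries. In siCNN3 it was Zbp1, Dhx58, Adar, Ifih1, Ddx58, Tmem173, Mavs, Tbk1 and Ikbke. There, Zbp1 lay above Dhx58 and Ddx58 above Tmem173 without overlap, and the other neighbours overlapped. The siCNN3 libraries thus split the 9 genes into 5 at 18.3 FPKM or more in every library and 4 at 11.4 FPKM or less in every library of either group.

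Libraries of a group also differed from each other. For each of the 3 receptors, siNC replicate 1 was the lowest, replicate 3 the middle and replicate 2 the highest of the control libraries. The FPKM totals of these libraries had the same order (322621, 347064 and 350968 in replicates 1, 3 and 2). How many of all tested genes had that order was not counted. The mean log2(FPKM + 1) of the 3 receptors was 1.55, 3.38 and 2.56 in siNC and 5.52, 5.57 and 4.78 in siCNN3. The 5 genes outside the pathway whose values followed that mean most closely over the 6 libraries were Lgals9, Ifi35, Phf11d, Dtx3l and Trim12c, with Pearson's r between 0.998 and 0.999. These points include the difference between the groups and share libraries, and the r is a description. What set the levels apart within siNC was not tested. When the spread of each gene was estimated without the other genes, no gene of the pathway was called, and the adjusted p was 0.0992 for Zbp1, 0.169 for Ddx58, 0.195 for Dhx58 and 0.199 for Ifih1.

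**Figure D4:**
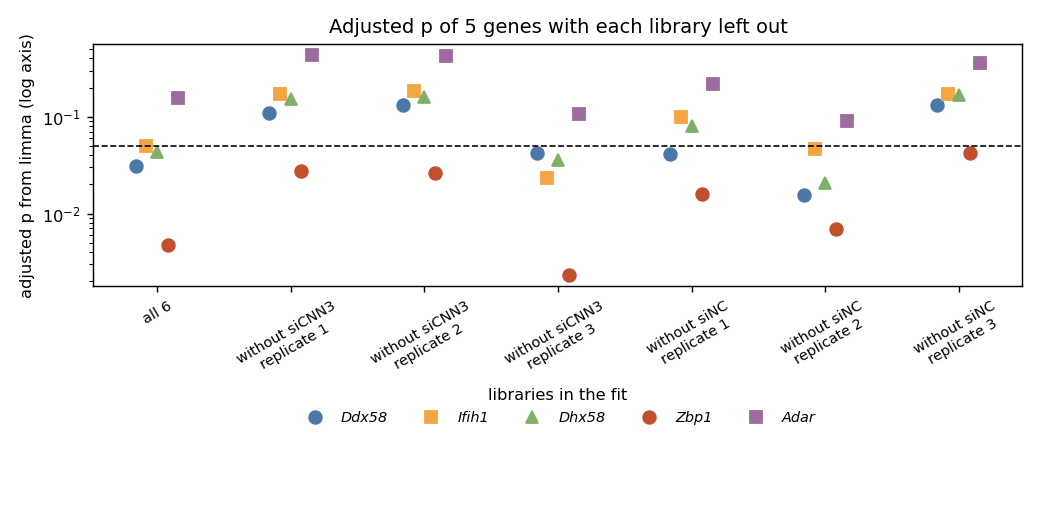
Adjusted p from limma (log axis) for the 5 genes that were higher in every siCNN3 library, with all 6 libraries and with each library left out; the dashed line marks 0.05. Zbp1 stays below the line throughout, Adar stays above it, and the receptors cross it.

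The wider pathway was described with 7 lists of genes grouped by role, each read against the 1.73% of all tested genes called higher and a median log2 fold change over all genes of 0.03. The 9 genes above had a median of 1.43. The cofactors and regulators of the receptors had 2 of 16 tested genes called higher, 0 lower (4 and 1 at an unadjusted p below 0.05) and a median of 0.01. Trim25, the ubiquitin ligase that activates RIG-I, was listed at 8.22, 16.8 and 13.5 FPKM in the siNC libraries against 43.9, 45.2 and 41.0 FPKM in those of siCNN3 (log2 fold change 1.73, SE 0.240, adjusted p = 0.0222, limma). Ddx60, a helicase linked to RIG-I signalling, was listed at 0.0187, 0.778 and 0.195 FPKM in the siNC libraries against 11.6, 9.94 and 3.53 FPKM in those of siCNN3 (log2 fold change 2.73, adjusted p = 0.0305). Both were higher in each siCNN3 library than in any siNC library, but Ddx60 had a siNC mean below 0.5 FPKM and entered the test only through its siCNN3 level, so its call adds no support to the list's count. The abundant 14-3-3 protein gene Ywhae and the phosphatase gene Ppp1ca were not called, at -0.01 and -0.13. The count for this list fell to 1 without siNC replicate 1 and to 0 without siCNN3 replicate 1, siCNN3 replicate 2 or siNC replicate 3.

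Downstream of the receptors, the adaptor and ubiquitin machinery around MAVS gave 0 calls among 20 tested genes, with a median log2 fold change of 0.11. At an unadjusted p below 0.05, 3 of the 20 were higher and 0 lower, where 9.94% of all tested genes were higher and 6.14% lower. The most abundant, the RNA-binding proteins Pcbp2 and Pcbp1 that act on MAVS, had log2 fold changes of 0.0037 and 0.06.

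Among transcription factors and interferon genes, 1 of 8 tested genes was called. At an unadjusted p below 0.05, 4 were higher and 0 lower, but 2 of the 4 (Ifnb1 and Ifna4) had a siNC mean below 0.5 FPKM and entered the test only through their siCNN3 level. Irf7, the inducible factor that drives interferon alpha genes, was listed at 0.796, 11.8 and 5.33 FPKM in the siNC libraries against 131, 122 and 76.6 FPKM in those of siCNN3 (log2 fold change 4.36, SE 0.665, adjusted p = 0.0305, limma). Its groups did not overlap, and its order within siNC was that of the receptors. The call was lost without siCNN3 replicate 1 (adjusted p = 0.115), siCNN3 replicate 2 (0.121) or siNC replicate 3 (0.126), and with a pseudocount of 0.1 the adjusted p was 0.0506. Irf3, the constitutive factor phosphorylated by TBK1, had a log2 fold change of 0.08 (95% interval -0.47 to 0.63), while Jun and Rela were at 0.61 and 0.04 and were not called.

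The interferon genes themselves were at low levels. Ifnb1 was listed at 0, 0.225 and 0 FPKM in the siNC libraries against 6.60, 7.78 and 1.01 FPKM in those of siCNN3, and the difference was not called (adjusted p = 0.0976, limma). Without siCNN3 replicate 3, the lowest of its group, Ifnb1 was called (adjusted p = 0.00139). That fit called 443 genes higher over all, against 200 with all 6 libraries. With any other library left out Ifnb1 was not called (adjusted p 0.189 to 0.305). It entered the test only through its siCNN3 level, so that call adds no support. Ifna4 was listed at 0 in all siNC libraries and at 2.08, 2.52 and 0.137 FPKM in siCNN3 (adjusted p = 0.220). Its adjusted p was 0.00490 without siCNN3 replicate 3 and 0.338 to 0.550 with another library left out, where it was tested. It too passed the filter only through its siCNN3 level. Ifng was below the filter with at most 0.867 FPKM in any library. For both Ifnb1 and Ifna4, siCNN3 replicate 3 was the lowest of its group, as it was for Ifih1, Dhx58, Zbp1 and Adar.

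Other proteins that bind double-stranded RNA gave 6 calls among 17 tested genes, all higher (9 higher and 0 lower at an unadjusted p below 0.05), with a median log2 fold change of 1.63. They were the oligoadenylate synthetases and relatives Oas1a, Oas1g, Oas2, Oas3, Oasl1 and Oasl2, which make or resemble enzymes that make the activator of RNase L. Of the 17 genes, 6 had a siNC mean below 0.5 FPKM and entered the test only through their siCNN3 level. They include 4 of the 6 called genes (Oas1g, Oas2, Oas3 and Oasl1) and 5 of the 9 at an unadjusted p below 0.05, so neither the counts nor the median of this list support a direction. Oas1a was listed at 0.129, 2.27 and 0.617 FPKM in the siNC libraries against 93.0, 85.3 and 24.2 FPKM in those of siCNN3 (log2 fold change 5.02, adjusted p = 0.0144, limma), and its paralogs can share its reads. Oas2 and Oas3 had log2 fold changes of 4.48 (adjusted p = 0.00886) and 4.13 (adjusted p = 0.00473). When transcripts that stood at 0 in one library while reaching 10 FPKM elsewhere were left out, the change of Oas2 was 2.14 (adjusted p = 0.0860). The count fell to 3 without siNC replicate 1 or siCNN3 replicate 1, to 2 without siCNN3 replicate 2 and to 1 without siNC replicate 3. Eif2ak2 (PKR), the kinase that stops translation on binding double-stranded RNA, was listed at 18.1, 50.6 and 34.1 FPKM in the siNC libraries against 111, 116 and 76.5 FPKM in those of siCNN3, without overlap, and was not called (log2 fold change 1.63, adjusted p = 0.0818). Without siNC replicate 2 it was called (adjusted p = 0.0475), and with any other library left out it was not (adjusted p 0.0633 to 0.280). The endosomal sensor Tlr3 (adjusted p = 0.158) and the helicase Dhx9 (log2 fold change 0.03) were not called. Tlr3 was called without siCNN3 replicate 3 (adjusted p = 0.0220) and not with any other library left out (adjusted p 0.175 to 0.440).

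**Figure D5:**
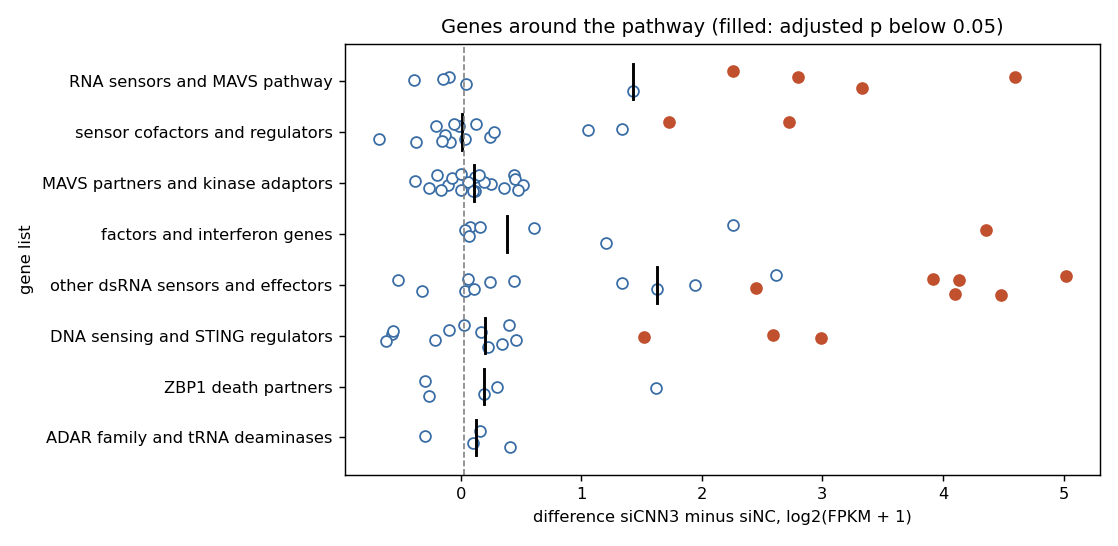
Difference siCNN3 minus siNC in log2(FPKM + 1) for each tested gene of 8 lists, with a black bar at each list's median, filled points for an adjusted p below 0.05 and a dashed line at the median of all genes, 0.03. The filled points all lie above 0, and the lists of MAVS partners and kinase adaptors, ZBP1 death partners, and the ADAR family have 0 of them.

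The cytosolic DNA pathway around STING gave 3 calls among 14 tested genes, all higher, with a median of 0.20. At an unadjusted p below 0.05, 4 of the 14 were higher and 3 (Enpp1, Rnf5 and Rnaseh2c) lower, where 9.94% of all tested genes were higher and 6.14% lower. In Enpp1 and Rnf5 each siCNN3 library was below all siNC libraries, an order that 9.35% of all tested genes had. Trex1, the exonuclease that clears cytosolic DNA, was listed at 3.37, 8.57 and 4.55 FPKM in the siNC libraries against 59.1, 57.9 and 31.8 FPKM in those of siCNN3 (log2 fold change 2.99, adjusted p = 0.0144, limma). Ifi204, a DNA-binding protein of the interferon-inducible family, had a log2 fold change of 2.59 (adjusted p = 0.0285), and it has close paralogs that can share reads. Samhd1, which breaks down nucleotides, was listed at 22.9, 23.1 and 23.3 FPKM in the siNC libraries against 77.5, 74.9 and 54.9 FPKM in those of siCNN3 (log2 fold change 1.52, adjusted p = 0.00990). Samhd1 thus differed from the receptors in having nearly the same level in the 3 siNC libraries. The count fell to 1 without siCNN3 replicate 1 and to 0 without siNC replicate 3 or siCNN3 replicate 2. The sensor Cgas (adjusted p = 0.571), Banf1 (0.746) and Surf4 (0.483) were not called, nor was Tmem173 itself.

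The proteins through which ZBP1 is known to kill cells gave 0 calls among 5 tested genes, and Ripk3 was not analysed here. At an unadjusted p below 0.05, 1 of the 5 was higher and 0 lower, where 9.94% of all tested genes were higher and 6.14% lower. Mlkl, which forms the membrane pore of necroptosis, was listed at 15.3, 28.0 and 21.3 FPKM in the siNC libraries against 91.0, 80.6 and 39.6 FPKM in those of siCNN3. Every siCNN3 library was above every siNC library, and the change was not called (log2 fold change 1.62, 95% interval 0.79 to 2.44, adjusted p = 0.0772, limma). Without siCNN3 replicate 3 Mlkl was called (adjusted p = 0.0135), and with any other library left out it was not (adjusted p 0.104 to 0.267). Casp6 had a log2 fold change of -0.30 (adjusted p = 0.666). The relatives of Adar gave 0 calls among 4 tested genes, with 0 at an unadjusted p below 0.05. Adat2, a transfer RNA deaminase, and Adarb1, the second editing enzyme, had log2 fold changes of 0.16 and 0.41, and the adjusted p was 0.593 for Adat2 and 0.678 for Adarb1.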

How the data were processed

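RNA-seq profiles of 6 libraries (3 siNC and 3 siCNN3, grouped by their titles) were used. The authors deposited FPKM per Ensembl transcript, and the submitters' processing notes name Bowtie 0.12.2 and the builds mm8 and mm10 without their roles. The estimating program, its annotation and the read numbers are not given in the sources used here, which leaves the depth unknown and counting error without an estimate. Transcripts were matched to GENCODE annotation of GRCm38 without their version (23949 of 24023, and the 74 others held 0.159% to 0.220% of a library's FPKM), and FPKM were summed per gene, 6066 of 11835 genes having more than 1 transcript. Genes whose mean reached 0.5 FPKM entered a fit of log2(FPKM + 1) in limma 3.58.1 (R 4.3.3), with p-values adjusted by Benjamini-Hochberg over all 11593 genes, a trend of variance with mean and a threshold of 0.05. The same test was run on the 21658 transcripts past that filter. The code was checked on simulated data. Single values and ratios had a two-sided exact permutation test, whose smallest p is 0.1. The labels do not say whether replicate numbers pair the libraries, and the main fit used no block.

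The 9 genes and the lists (receptor cofactors, MAVS partners, factors and interferon genes, other double-stranded RNA binders, DNA sensing, ZBP1 partners, ADAR relatives, and muscle, immune, red blood cell and endothelial markers) were chosen with earlier results of these data known. Named from each list are the 3 called genes with the largest change and the 2 most abundant genes not called, the interferon genes that were listed (Ifnb1, Ifna4 and Ifng), and from outside the lists the 5 genes most like the mean of the 3 receptors. Cnn3, other list members counted or compared by name (Irf3, Tlr3, Cgas, Oas1g, Oasl1, Oasl2, Enpp1, Rnf5, Rnaseh2c, Tek) and the markers were named in addition, after their values were seen. Sequences came from RefSeq promoter windows and the study's supplement. Alternatives were a pseudocount of 0.1, quantile normalization, median-of-ratios scaling, no filter or one at 5 FPKM, a replicate block, no trend, each gene on its own, array weights (estimated gene by gene, since the REML estimate did not converge on these 6 libraries), each library left out, the most abundant transcript of each gene, and leaving out transcripts that stood at 0 in one library while reaching 10 FPKM in another. Tables were handled with version 1.17.8 of data.table and with Python 3.11.15, pandas 2.3.3, numpy 2.4.6 and scipy 1.17.1, and figures with matplotlib 3.10.9.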

Additional observations from a re-analysis of the deposited data

How the results depend on the processing

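Over 17 alternatives, Zbp1 was called in 16, Ddx58 in 12, Dhx58 in 9 and Ifih1 in 8, and each of the 4 was higher in all 17. Adar was higher in all 17 and called only with array weights (adjusted p = 0.00863, limma), as Mavs was in the lower direction (adjusted p = 0.0445). The cause of these changes was not tested.

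The number of genes of the pathway called higher (4) was 3 with no filter, 3 without a trend and 2 with a pseudocount of 0.1. It was 2 with the most abundant transcript only, where Ddx58 (adjusted p = 0.0600, limma) and Dhx58 (adjusted p = 0.0782) lost their calls. It was 0 with each gene on its own and 1 to 4 with a library left out, and array weights gave 1 called lower. Each gene on its own also gave 0 calls in every list and 0 higher and 0 lower genes in all (1084 and 716 at an unadjusted p below 0.05). Array weights gave 5 calls among receptor cofactors, 3 among MAVS partners, 4 among factors and interferon genes, 7 in DNA sensing and 2 among ZBP1 partners, with 1433 higher and 1146 lower genes over all. A filter at 5 FPKM gave 1 call among cofactors, and a pseudocount of 0.1 gave 0 among factors. Median-of-ratios scaling and quantile normalization gave 63 and 93 genes lower over all. With each library left out in turn, the calls were 0 to 3 among cofactors, 0 to 3 among factors, 1 to 8 among other double-stranded RNA binders, 0 to 4 in DNA sensing and 0 to 1 among ZBP1 partners, with 16 to 443 higher and 4 to 159 lower genes over all.

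With the replicate number as a block, 2 genes of the pathway were called higher (Ddx58 and Zbp1), 0 among cofactors, 0 among factors, and 62 higher and 6 lower genes over all. Ifih1 (adjusted p = 0.0920, limma) and Dhx58 (adjusted p = 0.0691) lost their calls. Deviations from the group means correlated at -0.278, 0.314 and -0.025 between libraries numbered 1, 2 and 3. Not every library correlated best with its own number. The deviations cancel out within a group, so these correlations constrain each other and cannot decide whether the numbers pair the libraries.

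The sign turned in uncalled genes whose reported change was between -0.15 and 0.17, and in Adarb1 (0.41). Array weights gave 0.26 for Tbk1, 0.041 for Tmem173, -0.025 for Rela, -0.044 for Adarb1 and -0.039 for Irf3. Quantile normalization gave -0.018 for Ikbke, -0.15 for Pcbp2, -0.071 for Pcbp1, -0.066 for Rela and -0.066 for Dhx9. Median-of-ratios scaling gave -0.034 for Pcbp2 and -0.0059 for Dhx9. The most abundant transcript gave -0.24 for Ikbke and -0.039 for Pcbp2. With each library left out, the range was -0.33 to 0.11 for Tbk1, -0.0075 to 0.12 for Ikbke, -0.31 to 0.13 for Tmem173, -0.10 to 0.032 for Ywhae, -0.041 to 0.068 for Pcbp2, -0.083 to 0.20 for Pcbp1, -0.059 to 0.086 for Rela, -0.33 to 0.42 for Dhx9, -0.023 to 0.32 for Banf1, -0.084 to 0.66 for Adarb1 and -0.18 to 0.21 for Irf3.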
